A study of Rattus norvegicus with 30 samples.

Results

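Kupffer cells are the macrophages that live in the liver, and 10 genes that mark them or macrophages at large were followed through surgical resection of the liver, after which the remnant grows back (partial hepatectomy). The genes were Clec4f, Timd4, Vsig4, Cd5l, Csf1r, Adgre1, Cd68, Marco, Cd163 and Mrc1. They were taken by symbol from the 18166 genes whose probe sets carry exactly 1 gene symbol in the array's annotation, and all 10 were measured, each by 1 probe set. The livers came from 30 wild-type Wistar rats, with 6 rats in each of 5 groups: no operation, a sham operation, or partial hepatectomy of 30, 70 or 90%, called PH30, PH70 and PH90. Tissue was taken 24 hours after resection, and RNA from 1 piece of each liver was hybridised to 1 Affymetrix Rat Gene 2.0 ST array. The labels give neither age nor sex. Each value is a difference on the log2 scale from the median of that probe set over the 30 arrays, so 0 is the middle array, a rise of 1 is a doubling, and levels of different genes cannot be set against each other. The centred values do not tell whether a gene was abundant or faint in these livers, so the tissue could not be checked against absolute marker levels.

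Kupffer cells line the blood sinusoids, where they clear bacteria, worn red cells and debris, and they are known to release cytokines that prime hepatocytes for division after partial hepatectomy. Their survival depends on signals through the receptor that Csf1r encodes. Clec4f, Timd4, Vsig4 and Cd5l are used as markers of the resident cells, Csf1r, Adgre1 and Cd68 mark macrophages broadly, and Marco, Cd163 and Mrc1 encode scavenger and uptake receptors. When resident cells are lost, monocytes from the blood are known to enter the liver and take on Kupffer cell genes over time.

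The livers of 2 rats lay away from their groups over all genes. Against its own group, the mean Pearson r was -0.113 for PH30 rat 95 and -0.114 for PH70 rat 139, while each of the other 28 arrays had 0.18 or more. Rat 95 was the lowest PH30 rat for 10 of the 10 marker genes, and rat 139 was the highest PH70 rat for 8 of 10. The mean of 10 cell division genes was 2.84 in rat 95, against -0.26 to 1.26 in the other PH30 rats, and -0.18 in rat 139, against 1.6 to 2.8 in the other PH70 rats. Both rats are kept below. The shares of all genes called that are given below come from fits with both rats. Shares without them are not given, so gains in calls without them cannot be read as particular to the markers or lists. Every call of PH30 or PH70 against sham that is named below, for markers and for genes of other lists, also passed without both rats, and marker gene calls against sham that were gained without them are given. Unoperated rats carry the highest animal numbers (145 to 152, against 37 to 143 in the operated rats), so the order of the animals and the operation cannot be told apart.

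After 90% hepatectomy most markers of resident macrophages were lower than after sham surgery, while the haemoglobin scavenger receptor Cd163 was higher. Of the 10 genes 6 fell (Csf1r, Cd5l, Adgre1, Clec4f, Vsig4 and Timd4) and 1 rose (Cd163), in limma's test with Benjamini-Hochberg adjustment over all genes and a threshold of 0.05. In the same comparison 34.6% of all 18166 genes were called, 14.7% lower and 19.9% higher. How many of all genes had ranges that did not overlap between groups, as some genes below did, was not counted. The median log2 difference was -0.54 over the 10 genes and 0 over all genes. In a piece of whole liver, fewer cells of a type and less RNA per cell cannot be told apart. In the same livers the mean of 7 sinusoidal endothelial genes ran from -0.46 to -0.20 in PH90 livers, against -0.29 to 0.28 in sham livers, and the mean of 10 hepatocyte genes from -0.57 to -0.44 in PH90 livers, against 0.11 to 0.25 in sham livers. Of those endothelial genes Oit3 and Clec4g alone passed the threshold against sham. Of the hepatocyte genes 5 fell and 2 rose. Cyp2c11 (-3.44), Cyp2e1 (-2.52) and Otc (-1.82) fell furthest, while Alb differed by -0.07 and Arg1 rose by 1.27. The part of these cells in the marker gene result was not tested.

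**Figure D1:**
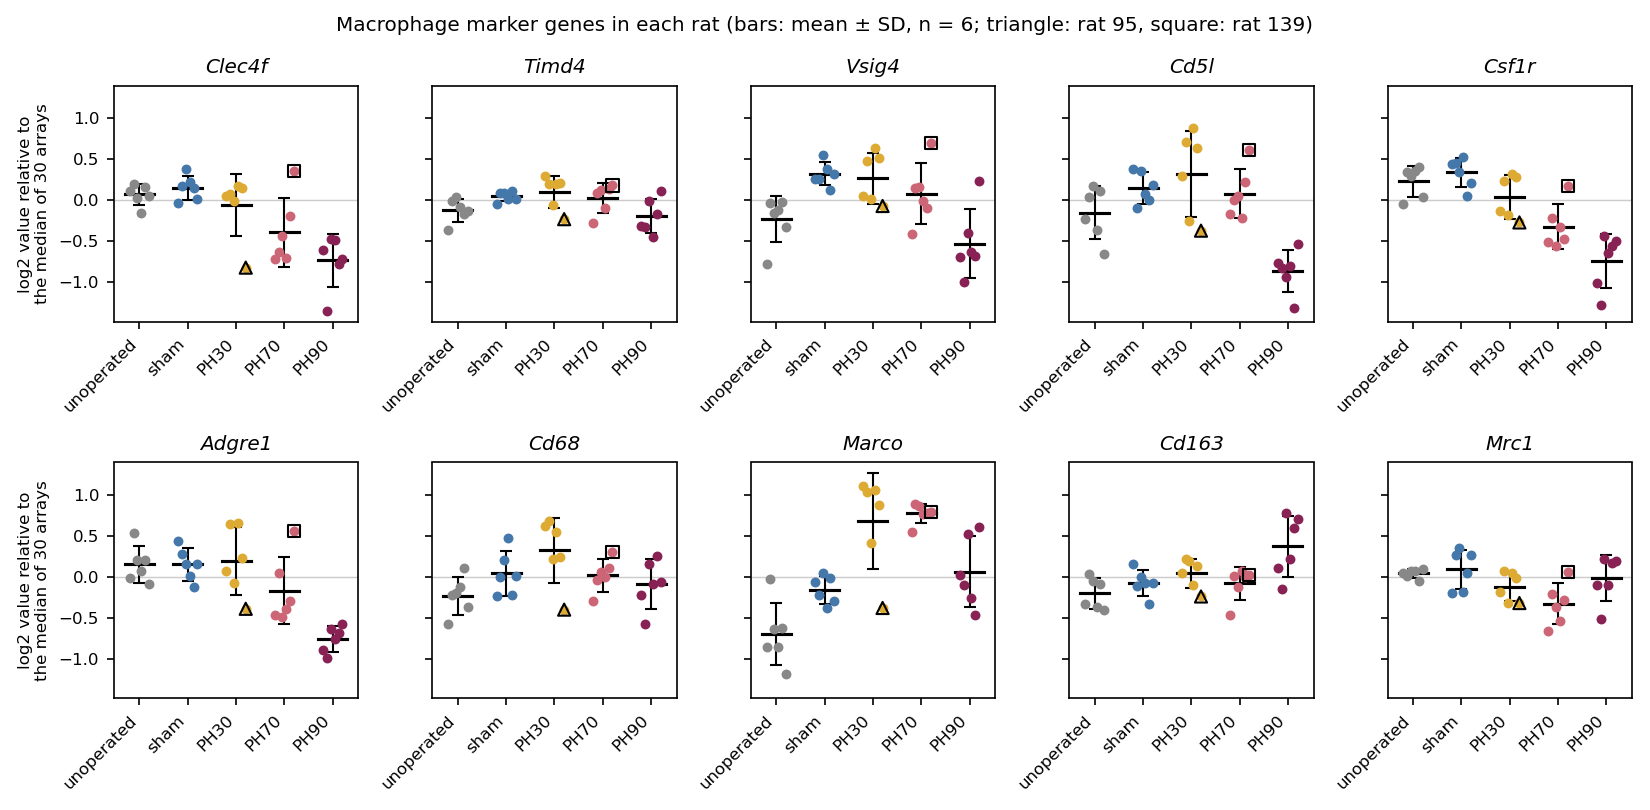
Log2 value of each marker gene relative to its median over 30 arrays (y axis) in the 5 groups (x axis), 1 point per rat, with black bars for the mean ± SD (n = 6). Csf1r, Cd5l, Adgre1 and Clec4f lie lower in all 6 PH90 livers than in any sham liver, Marco is high in PH30 and PH70, and the outlined triangle (rat 95) and square (rat 139) lie at the edges of PH30 and PH70 for most genes.

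Csf1r encodes the receptor for colony stimulating factor 1, on which macrophages depend. Its values ran from -1.27 to -0.44 in PH90 livers (median -0.60), against 0.05 to 0.53 in sham livers (median 0.39). The groups did not overlap, and Csf1r was 2.1-fold lower in PH90 (log2 difference -1.07, SE 0.14, adjusted p = 2.6e-07). Its 5 group means, in order of resection, were 0.23 ± 0.19 in unoperated, 0.34 ± 0.18 in sham, 0.04 ± 0.27 in PH30, -0.32 ± 0.27 in PH70 and -0.74 ± 0.33 in PH90 livers (SD, n = 6 each). The difference did not pass the threshold between sham and unoperated livers (0.10, adjusted p = 0.88), PH30 and sham (-0.29, adjusted p = 0.23) or PH70 and PH30 (-0.36, adjusted p = 0.16). PH70 was lower than sham (-0.66, SE 0.14, adjusted p = 0.00092), and PH90 lower than PH70 (-0.42, SE 0.14, adjusted p = 0.026). The last of these calls was lost without PH70 rat 58 or 139 or PH90 rat 39 or 43 (-0.39 to -0.31, adjusted p = 0.055 to 0.093), and in a fit of those groups alone (-0.42, adjusted p = 0.084). Without rats 95 and 139 together it was -0.32 (adjusted p = 0.075), and PH70 was lower than PH30 (-0.52, adjusted p = 0.0088).

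Adgre1 encodes the adhesion receptor recognised by the classic F4/80 macrophage antibody in the mouse. It ran from -0.99 to -0.58 in PH90 livers (median -0.72), against -0.12 to 0.44 in sham livers (median 0.16). Every PH90 liver lay below every sham, unoperated, PH30 and PH70 liver. The difference was -0.91 against sham (1.88-fold lower, SE 0.16, adjusted p = 3.7e-05), -0.95 against PH30 (adjusted p = 3e-05) and -0.58 against PH70 (adjusted p = 0.0075). PH70 itself differed from sham by -0.33 (adjusted p = 0.18), and by -0.48 (adjusted p = 0.0065) without rats 95 and 139.

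Clec4f, a lectin that rodent Kupffer cells carry and other macrophages largely lack, ran from -1.35 to -0.47 in PH90 livers (median -0.66), against -0.03 to 0.38 in sham livers (median 0.16). The groups were separate, and the gene was 1.84-fold lower in PH90 (-0.88, SE 0.17, adjusted p = 7.4e-05). In PH70 livers Clec4f ran from -0.72 to 0.36 (median -0.54). The 5 PH70 rats other than rat 139 lay below every sham liver, and rat 139 held the group's 0.36. PH70 was 1.45-fold lower than sham (-0.54, SE 0.17, adjusted p = 0.021). That call was lost without PH70 rat 37, 58 or 97 or sham rat 45, where the difference was -0.47, -0.49, -0.47 and -0.49 (adjusted p = 0.064, 0.056, 0.061 and 0.054), and it was kept without rats 95 and 139 (-0.69, adjusted p = 4.2e-05). In PH30 livers Clec4f ran from -0.82 in rat 95 to 0.17, and the 5 other rats lay between -0.01 and 0.17, within the sham range. PH90 and PH70 were not told apart for this gene (-0.34, adjusted p = 0.15, 95% interval -0.68 to -0.01 before adjustment).

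Cd5l encodes a protein that macrophages secrete and that protects them from death. It ran from -1.31 to -0.53 in PH90 livers (median -0.81), against -0.10 to 0.38 in sham livers (median 0.12), with no overlap. The gene was 2.01-fold lower than in sham (-1.01, SE 0.18, adjusted p = 5e-05), and 2.26-fold lower than in PH30 (-1.18, adjusted p = 7.1e-06). PH70 and sham livers differed by -0.07 (adjusted p = 0.88). The PH30 livers were the most spread, from -0.37 in rat 95 to 0.88 in rat 130 (SD 0.52, n = 6).

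Vsig4, a complement receptor of Kupffer cells that takes up opsonised bacteria, ran from -1.0 to 0.23 in PH90 livers (median -0.66), against 0.13 to 0.55 in sham livers (median 0.29). PH90 rat 111, at 0.23, was the 1 PH90 liver inside the sham range. The gene was 1.8-fold lower in PH90 than in sham (-0.85, SE 0.17, adjusted p = 0.00021). Against unoperated livers, which ran from -0.77 to -0.02, the PH90 difference was -0.29 (adjusted p = 0.22). Sham livers lay above every unoperated liver for Vsig4, by 0.55 in the mean (SE 0.17, adjusted p = 0.15), and the difference passed the threshold in a fit of those groups alone (adjusted p = 0.01).

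Timd4, a receptor for phosphatidylserine on dying cells that marks long-lived resident macrophages, changed least among the genes that fell. It ran from -0.45 to 0.11 in PH90 livers (median -0.24), against -0.04 to 0.11 in sham livers (median 0.05). The groups overlapped, and the difference of -0.24 (SE 0.09, adjusted p = 0.049) lost its call without PH90 rat 39, 43, 87 or 106 or sham rat 41, 45, 112, 114 or 143, 9 of the 12 fits that left out 1 rat (adjusted p = 0.061 to 0.14, differences of -0.25 to -0.19). The Timd4 difference from unoperated livers was -0.07 (adjusted p = 0.64).

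**Figure D2:**
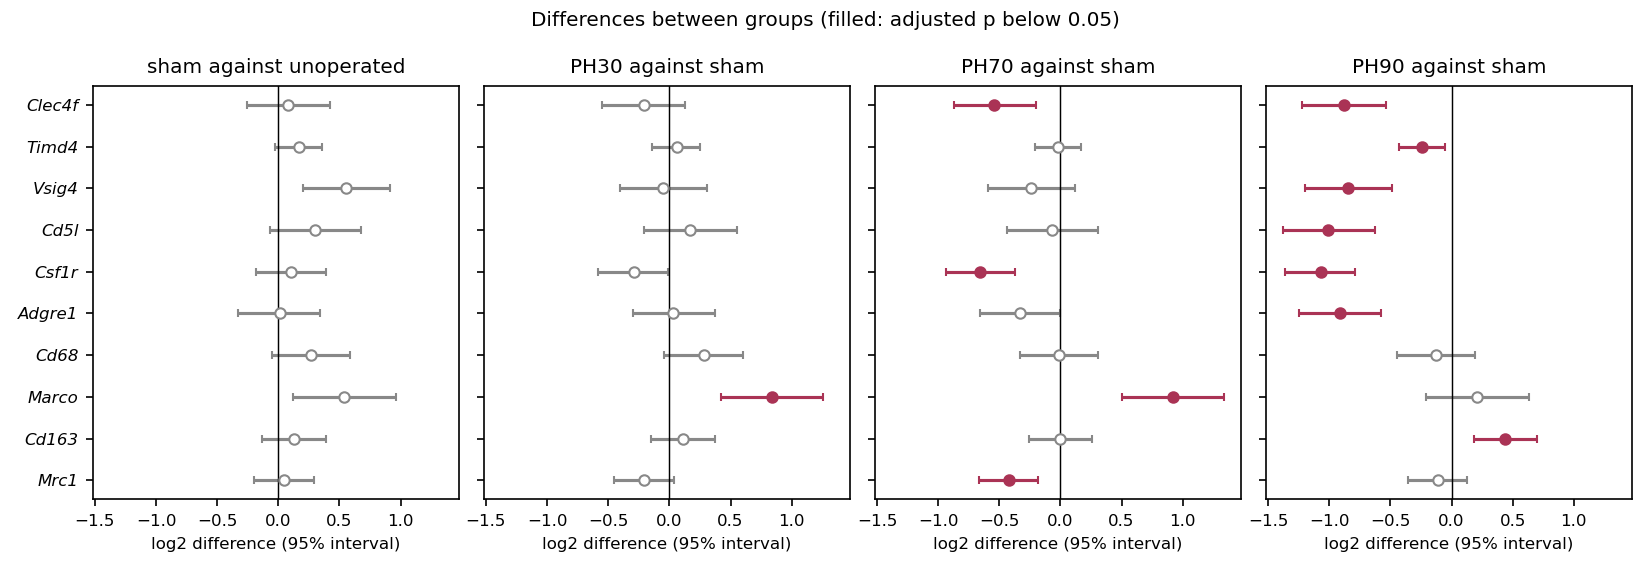
Log2 difference of each marker gene (x axis, points with 95% intervals before adjustment) in 4 comparisons, filled where limma's adjusted p was below 0.05. In PH90 against sham 6 genes are filled on the left and Cd163 on the right, in PH70 Marco stands opposite Clec4f, Csf1r and Mrc1, in PH30 Marco is filled, and in sham against unoperated none is.

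Cd163, the receptor that clears complexes of haemoglobin and haptoglobin, moved the other way. It ran from -0.15 to 0.77 in PH90 livers (median 0.40), against -0.33 to 0.16 in sham livers (median -0.08). PH90 rats 61, 87, 106 and 111 lay above every sham liver, and rats 39 and 43 did not. The gene was 1.36-fold higher than in sham (0.44, SE 0.13, adjusted p = 0.0063), 1.49-fold higher than in unoperated livers (0.57, adjusted p = 0.00058) and 1.36-fold higher than in PH70 (0.45, adjusted p = 0.0085, and 0.057 in a fit of those groups alone). The excess over PH30 was 0.33 (adjusted p = 0.046), which did not hold without rats 95 and 139 (0.28, adjusted p = 0.11). PH30 and PH70 differed from sham by 0.11 and 0.00 (adjusted p = 0.69 and 0.99).

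Marco, a scavenger receptor for bacteria and particles, was high after the smaller resections. Its 6 PH70 values lay between 0.55 and 0.88 (median 0.78), against -0.38 to 0.05 in sham livers (median -0.14). No PH70 liver overlapped a sham liver, and Marco was 1.9-fold higher (0.92, SE 0.20, adjusted p = 0.0015). In PH30 livers it ran from -0.38 to 1.10 (median 0.95), where 5 rats lay above every sham liver and rat 95, at -0.38, at the bottom of the sham range. PH30 was 1.79-fold higher than sham (0.84, SE 0.20, adjusted p = 0.015, and 1.05 without rats 95 and 139). Marco was the 1 marker gene of 10 called in PH30 against sham, where 5.53% of all genes were called, 2.2% higher and 3.34% lower. PH70 and PH30 were not told apart (0.09, SE 0.20, 95% interval -0.33 to 0.51, adjusted p = 0.88).

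The PH90 values of Marco were spread from -0.47 to 0.61 (median -0.04), and the difference from sham was 0.21 (SE 0.20, adjusted p = 0.49). PH90 was 1.64-fold lower than PH70 (-0.71, adjusted p = 0.0094) and 1.54-fold lower than PH30 (-0.63, adjusted p = 0.019, and 0.099 in a fit of those groups alone). The call against PH30 was also lost without PH30 rat 65, 98 or 130 or PH90 rat 106 (adjusted p = 0.051 to 0.06). Unoperated livers were the lowest, from -1.18 to -0.03 (median -0.74). Against them Marco was higher in PH30 by 1.38 (2.6-fold, adjusted p = 8.2e-05), in PH70 by 1.47 (2.76-fold, adjusted p = 9.7e-06) and in PH90 by 0.75 (1.68-fold, adjusted p = 0.0041). Sham livers exceeded unoperated livers by 0.54 (adjusted p = 0.26).

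Mrc1, the mannose receptor, is shared by macrophages and the endothelial cells of the sinusoids. It was lowest in PH70 livers, from -0.66 to 0.06 (median -0.32), against -0.20 to 0.35 in sham livers (median 0.16). PH70 was 1.34-fold lower than sham (-0.42, SE 0.12, adjusted p = 0.012), with 5 of 6 rats below every sham liver. PH90 differed from sham by -0.11 (adjusted p = 0.54) and from PH70 by 0.31 (adjusted p = 0.061, and 0.39 with adjusted p = 0.013 without rats 95 and 139). The endothelial markers Oit3 and Clec4g also fell in PH70, by 0.65 and 0.62 on the log2 scale (adjusted p = 0.0031 and 0.0017). They were the 2 of 7 measured endothelial genes that did, where 8.15% of all genes fell. The mean of those 7 genes ran from -0.36 to 0.12 in PH70 livers and from -0.29 to 0.28 in sham livers, and its part in the Mrc1 result was not tested.

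Cd68, a lysosomal protein of phagocytes, did not pass the test in any PH group against sham. Its PH90 values ran from -0.58 to 0.25 (median -0.08), against -0.23 to 0.47 in sham livers (median 0.00), a difference of -0.13 (95% interval -0.45 to 0.19, adjusted p = 0.60). PH30 was higher than unoperated livers by 0.55 (SE 0.16, adjusted p = 0.024), but not when PH30 rat 65, 98 or 130 or unoperated rat 145 or 151 was left out (0.48 to 0.52, adjusted p = 0.053 to 0.068). Without rats 95 and 139 Cd68 was also higher in PH30 than in sham (0.42, adjusted p = 0.047), where with them the difference was 0.28 (adjusted p = 0.33).

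**Figure D3:**
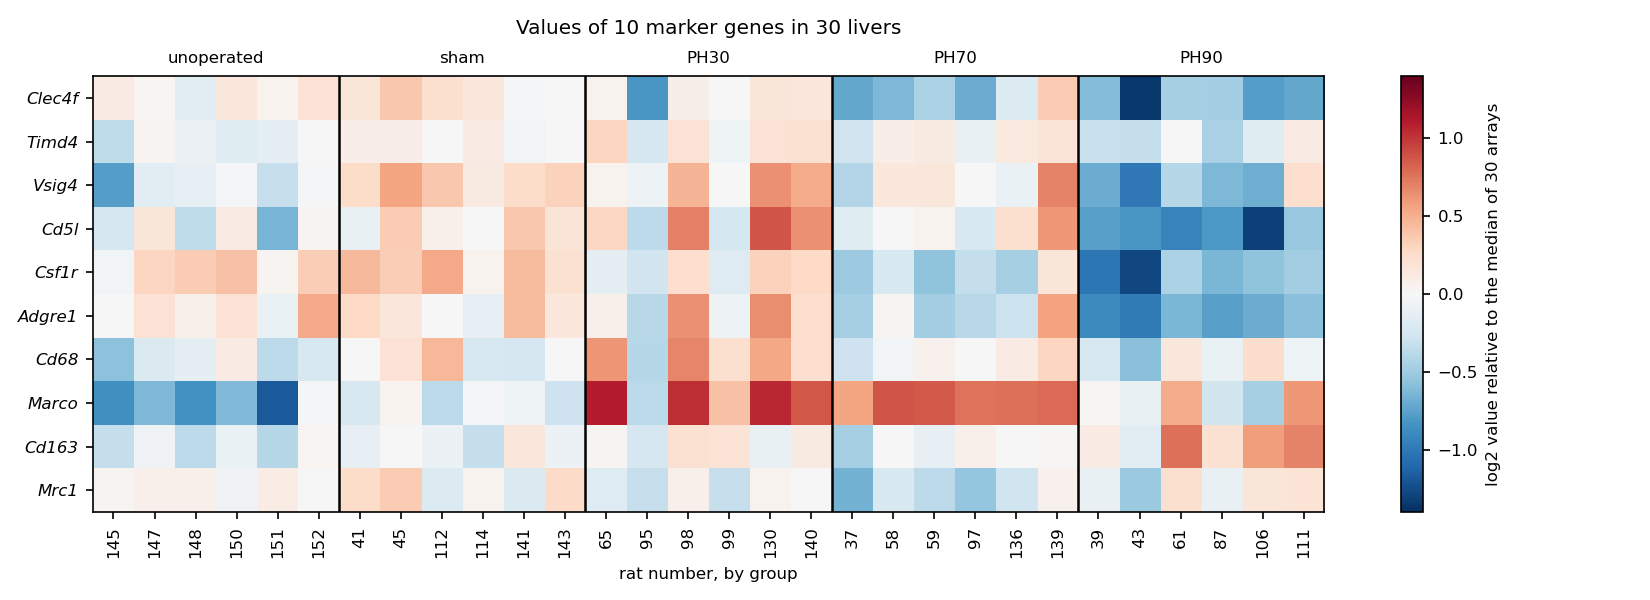
Values of the 10 marker genes (rows) in each of the 30 rats (columns, by group and rat number), as log2 difference from the gene's median over all arrays (colour scale). PH90 rat 43 is blue across most rows and reaches -1.35 for Clec4f, PH90 rats 61 and 111 are red for Marco and Cd163 where Cd5l and Adgre1 are blue, and PH30 rat 95 and PH70 rat 139 differ from their neighbours.

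Counted over the other comparisons, 4 of the 10 genes changed in PH70 against sham, where 18.6% of all genes did. Marco rose (10.5% of all genes rose) and Clec4f, Mrc1 and Csf1r fell (8.15% of all genes fell). Adgre1 fell as well when rats 95 and 139 were left out. PH90 against PH30 had 8 genes lower and Cd163 higher (31.5% of all genes called, 13.1% lower and 18.4% higher), and PH90 against PH70 had 5 lower, Csf1r, Cd5l, Adgre1, Vsig4 and Marco, and Cd163 higher (24.5% of all genes called, 10.4% lower and 14.1% higher). These comparisons share the PH90 livers. In a fit of each pair of groups alone 5 genes were lower and 0 higher in PH90 against PH30 (Cd163 then had adjusted p = 0.13), and 4 lower and 0 higher in PH90 against PH70. Against PH30, single rats also decided 3 small calls: Cd163 ended without any of 7 rats (PH30 rats 65, 95, 130 and 140, PH90 rats 61, 106 and 111), Cd68 without any of 9 (PH30 rats 65, 98, 99, 130 and 140, PH90 rats 39, 43, 87 and 111), and Timd4 without PH90 rat 87 (adjusted p = 0.051 to 0.14, 0.052 to 0.14 and 0.052).

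Set against unoperated rats, PH90 had 4 genes lower, Csf1r, Adgre1, Clec4f and Cd5l, and 2 higher, Marco and Cd163 (33.8% of all genes called, 14.5% lower and 19.3% higher). PH70 had Csf1r and Mrc1 lower and Marco higher (18.5% of all genes called, 9.17% lower and 9.31% higher), with Clec4f and Adgre1 added without rats 95 and 139. The Mrc1 call (-0.38, adjusted p = 0.027) was lost without PH70 rat 37 or 97 or unoperated rat 151 (adjusted p = 0.05 to 0.086). In PH30 Marco and Cd68 were higher (9.85% of all genes called, 3.48% higher and 6.37% lower), with Timd4, Vsig4 and Cd5l added when rats 95 and 139 were left out. Limma called 0 of 10 in sham against unoperated (0.738% of all genes called, 0.308% higher and 0.429% lower) and 0 of 10 in PH70 against PH30 (2.27%, with 1.76% higher and 0.512% lower), with 2 genes at an unadjusted p below 0.05 in each. PH70 was lower than PH30 for 4 genes when rats 95 and 139 were left out, Clec4f (-0.63), Adgre1 (-0.63), Csf1r (-0.52) and Cd68 (-0.49, adjusted p = 0.021). With array weights or a fit of the groups alone, Vsig4 and Marco were higher in sham than in unoperated livers. Over the 5 groups together, 9 of the 10 genes differed by limma's moderated F test, where 42.7% of all genes did. The gene that missed was Cd68 (adjusted p = 0.055), and the smallest adjusted p were those of Csf1r (6.5e-07) and Marco (2e-06).

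The marker genes varied together among rats of the same group. After each group's mean was taken away, all 45 pairs of the 10 genes correlated above 0 over the 30 livers, with a median Pearson r of 0.58 and a range of 0.28 (Cd5l with Cd163) to 0.80 (Csf1r with Adgre1 and with Vsig4). With the group differences left in, 38 of 45 pairs were above 0, the median was 0.45 and the lowest -0.27. The pairs Cd5l and Cd163, and Marco and Mrc1, both had -0.27 with group differences and 0.28 and 0.35 without them. Without rats 95 and 139 all 45 within-group pairs were again above 0, with a median of 0.47 and a range of 0.15 (Cd5l with Cd68) to 0.73. These are descriptions over arrays that share a normalisation. No such value for pairs of other genes stands beside them, so they cannot be read as particular to the markers. Among PH90 livers rat 43 was the lowest for 7 of the 10 genes and rat 111 the highest for 5, and among PH70 livers rat 37 was the lowest for 7.

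**Figure D4:**
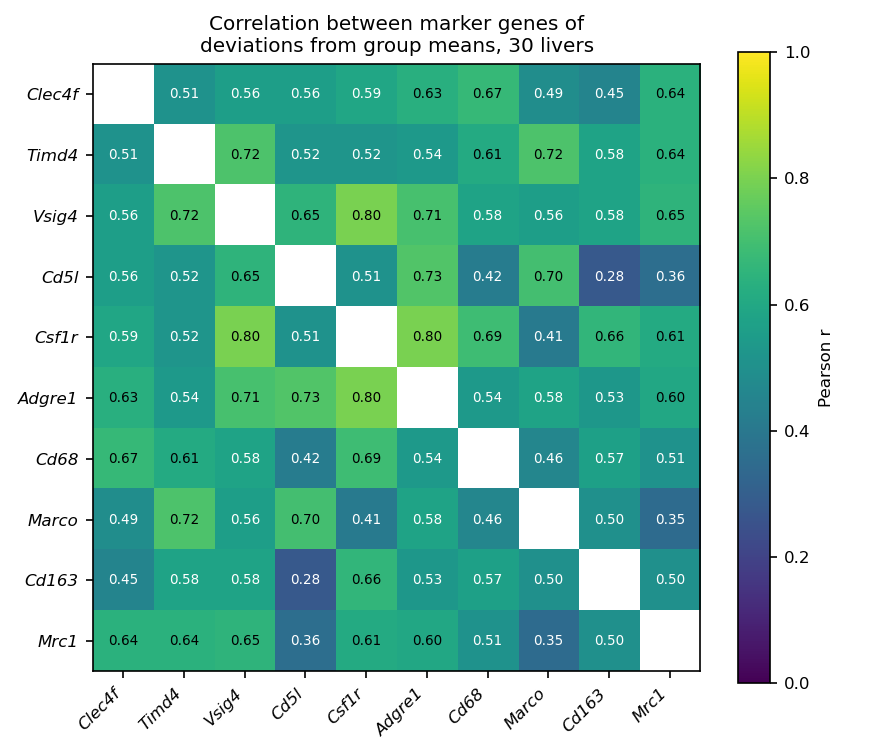
Pearson r between each pair of marker genes, computed on deviations from group means over 30 livers and written in each square. All 45 pairs are above 0, from 0.28 to 0.80.

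The genes most like each marker over the 30 arrays, by Pearson r among all 18166 genes, included several genes of leukocytes. Cd68 was followed by Fcer1g, a signalling chain of Fc receptors (r = 0.893), and C1qc, a chain of complement C1q that macrophages make (0.881). Csf1r had Adgre4, a relative of Adgre1 (0.902), and Cd4, which rat macrophages carry (0.899), behind Ubr3 (0.911). Adgre1 was closest to Csf1r (0.894), Timd4 to Vsig4 (0.812) and C1qc (0.765), and Cd5l to Lcp2 (0.893) and Itgal (0.869), both of leukocyte signalling and adhesion. Clec4f was nearest to Cfp, the complement activator properdin (0.936, and 0.861 on deviations from group means), and to Dnase1l3, a nuclease of macrophages (0.908). Vsig4 was nearest to Ptgs1, a cyclooxygenase (0.913). Mrc1 stood with Adgrf5 (0.862), an adhesion receptor of endothelium, and then with Sec14l4 (0.825) and Lztfl1 (0.792). Marco stood with Sec11c and P4hb (0.847 and 0.835), which act in the secretory pathway of any cell, and then with Itgb2, a leukocyte integrin (0.814). On deviations from group means Marco had lower r with Sec11c, P4hb and Itgb2 (0.546, 0.557 and 0.426). The nearest genes to Cd163 were Prkx, Arfip1 and Plscr1 (0.80 to 0.815). The remaining neighbours were Mxd4 for Clec4f (0.886), Tgfbr3 for Timd4 (0.736), and RT1-Da and Itpr2 for Adgre1 (both 0.863). To these came Ly86 and Nckap1l for Vsig4 (0.853 and 0.845), Ptgs1 for Cd5l (0.86) and Lrrc25 for Cd68 (0.774).

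The promoters of Csf1r and Clec4f, which fell in PH70 and PH90, and of Marco and Cd163, which rose in different groups, are shown for comparison. Each run is the 250 bases before the gene's start in RefSeq (build GRCr8), 5′ to 3′ on the gene's strand, with capitals for the core recognised by PU.1, the macrophage transcription factor encoded by Spi1 (GAGGAA, or TTCCTC where it lies on the opposite strand).
Csf1r (chr18:56834129-56834378, + strand): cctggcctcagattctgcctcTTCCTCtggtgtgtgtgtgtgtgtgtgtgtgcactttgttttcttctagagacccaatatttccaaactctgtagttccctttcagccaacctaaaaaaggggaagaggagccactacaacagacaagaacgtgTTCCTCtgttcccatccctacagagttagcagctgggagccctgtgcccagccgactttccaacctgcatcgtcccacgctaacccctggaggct
Clec4f (chr4:117696408-117696657, - strand): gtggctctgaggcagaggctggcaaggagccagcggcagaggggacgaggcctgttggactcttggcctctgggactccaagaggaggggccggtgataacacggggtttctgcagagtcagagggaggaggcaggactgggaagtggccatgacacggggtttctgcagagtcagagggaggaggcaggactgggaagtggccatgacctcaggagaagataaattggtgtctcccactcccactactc
Marco (chr13:34201256-34201505, - strand): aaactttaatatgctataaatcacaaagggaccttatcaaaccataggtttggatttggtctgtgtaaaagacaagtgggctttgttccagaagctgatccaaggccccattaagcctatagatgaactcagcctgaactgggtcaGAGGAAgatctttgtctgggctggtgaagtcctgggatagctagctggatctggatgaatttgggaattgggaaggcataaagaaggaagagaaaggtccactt
Cd163 (chr4:158770524-158770773, + strand): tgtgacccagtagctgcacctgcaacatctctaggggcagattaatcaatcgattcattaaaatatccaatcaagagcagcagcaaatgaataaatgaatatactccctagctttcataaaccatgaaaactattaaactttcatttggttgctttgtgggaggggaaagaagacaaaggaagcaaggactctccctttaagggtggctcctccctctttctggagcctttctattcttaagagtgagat
The core was present on either strand in 6 of the 10 marker promoters (Adgre1, Cd5l, Cd68, Csf1r, Marco and Mrc1) and in 23.3% of 33469 rat promoters of that length. Csf1r carried it at 229 and 95 bases before the start, both on the opposite strand, and Marco at 104 bases before it. The AP-1 motif TGANTCA was present in 1 of the 10, Cd68, and in 6.3% of all promoters. These are matches of letters in a short window, and the array does not measure binding.

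Transcription factors of Kupffer cells were described from a list of 9 measured genes. In PH90 against sham 3 fell and 2 rose, around a median of -0.25. For these and the lists that follow, the counts stand beside 14.7% of all genes that fell in PH90 against sham and 19.9% that rose, and no list was tested as a set. Against sham 8.15% of all genes fell and 10.5% rose in PH70, and 3.34% fell and 2.2% rose in PH30. Nr1h3, which encodes the liver X receptor alpha that supports Kupffer cell identity, ran from -0.87 to -0.24 in PH90 livers, against 0.00 to 0.31 in sham livers, and fell by 0.63 on the log2 scale (SE 0.10, adjusted p = 1e-05). Spi1 fell by 0.35 (adjusted p = 0.0026) and Zeb2 by 0.39 (adjusted p = 0.00075). The genes that rose were Id1, an inhibitor of differentiation (1.57, SE 0.14, adjusted p = 5.6e-10), and Cebpb (0.33, adjusted p = 0.032), both of which hepatocytes also express. Which cells of the liver piece gave the RNA of the genes that fell, Nr1h3 included, was not tested. Irf8 (-0.25) and Maf (-0.44) missed the threshold with all rats (adjusted p = 0.054 for each). Both passed at the same differences without rats 95 and 139, so 5 of 9 were then called lower. In PH70 Id1 rose and Zeb2 fell, and in PH30 limma called 0 of 9, with 0 at an unadjusted p below 0.05.

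Among 6 measured ligands and receptors of the colony stimulating factor family, Csf1, the ligand of the Csf1r receptor, was the 1 gene that changed against sham. It was higher than in sham in PH30 by 0.45 (SE 0.10, adjusted p = 0.011), in PH70 by 0.48 (adjusted p = 0.0011) and in PH90 by 0.48 (adjusted p = 0.00044), while Csf1r was lower in PH70 and PH90. The 3 comparisons share the sham livers, and the difference of Csf1 between sham and unoperated livers was -0.17 (adjusted p = 0.61). Csf2rb, a receptor chain of the family, was called against unoperated livers in PH30, PH70 and PH90 (0.67, 0.69 and 0.42, adjusted p = 0.0081, 0.0031 and 0.049), but not against sham.

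Receptors and complement genes of phagocytosis, 18 measured, had 7 lower and 1 higher in PH90 than in sham (median -0.22), and the other 10 did not pass. Siglec1, the sialic acid receptor of resident macrophages, ran from -0.51 to -0.20 in PH90 livers, against -0.16 to 1.03 in sham livers, and fell by 0.69 (SE 0.15, adjusted p = 0.00036). Fcgr3a fell by 0.71, Stab1, a scavenger receptor that endothelium shares, by 0.52, and C1qb by 0.39. The gene that rose was Itgax, the integrin of dendritic cells and some macrophages (0.29, adjusted p = 0.018), chosen for mention after its value was seen. Of 11 general leukocyte genes 5 fell, among them Cybb, the oxidase of phagocytes (-0.86, adjusted p = 0.00034), and Laptm5 (-0.55), and Coro1a rose (median -0.33). In PH30 1 leukocyte gene rose, Itgb2 (0.50, adjusted p = 0.0072), joined by Fcer1g without rats 95 and 139 (0.49, adjusted p = 0.01), and limma called 0 of the 18 phagocytosis genes, with 0 at an unadjusted p below 0.05. Without rats 95 and 139, 11 of 18 phagocytosis genes were called lower in PH90 in place of 7, at unchanged differences. In PH70 3 of them were called lower in place of 1, and in PH30 2 were called higher (C1qa and Axl). Of the 11 leukocyte genes 4 were then called lower in PH70 (in place of 1). The share of all genes called without those rats is not given, so these gains cannot be read as particular to these lists.

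Markers of recruited monocytes and of lipid-associated macrophages were called in 1 direction where they were called in PH90 against sham. Of 11 monocyte genes 4 rose, 0 fell and 7 did not pass, where 34.6% of all genes were called (median 0.26): Vcan by 1.03 (2.04-fold, adjusted p = 4.6e-05), Ccr1 by 0.90 (adjusted p = 9.1e-06), Fn1 by 0.84 and Cx3cr1 by 0.27. Ccr1, a chemokine receptor of monocytes, ran from 0.19 to 1.62 in PH90 livers, against -0.26 to 0.08 in sham livers. Fn1, fibronectin, is also made by hepatocytes, and Ccr2, the receptor that defines recruited monocytes, differed by -0.10 (adjusted p = 0.39), a gene named after its value was seen. In PH70 against sham Cd14 fell and 0 of the 11 rose, without the PH30 and PH70 rats that lay away from their groups. Of 7 lipid-associated macrophage genes 4 rose and 0 fell (median 0.74): Lgals3 by 1.42 (2.67-fold, SE 0.14, adjusted p = 1e-09), Lpl by 1.19, Gpnmb by 0.90 and Cd9 by 0.65. Lgals3, which encodes galectin-3, rose in PH30 (0.80) and PH70 (1.08) as well, with values of 0.26 to 1.04 in PH90 livers against -1.22 to -0.50 in sham livers. Trem2, the receptor that defines these cells, differed by -0.17 (adjusted p = 0.19), and was likewise named after its value was seen. Outside the comparison with sham, PH90 was called lower than PH70 for Ccr2 and lower than PH30 for Trem2, while other genes of their lists were called higher. Which cells gave the RNA of the genes that rose in these lists was not tested.

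**Figure D5:**
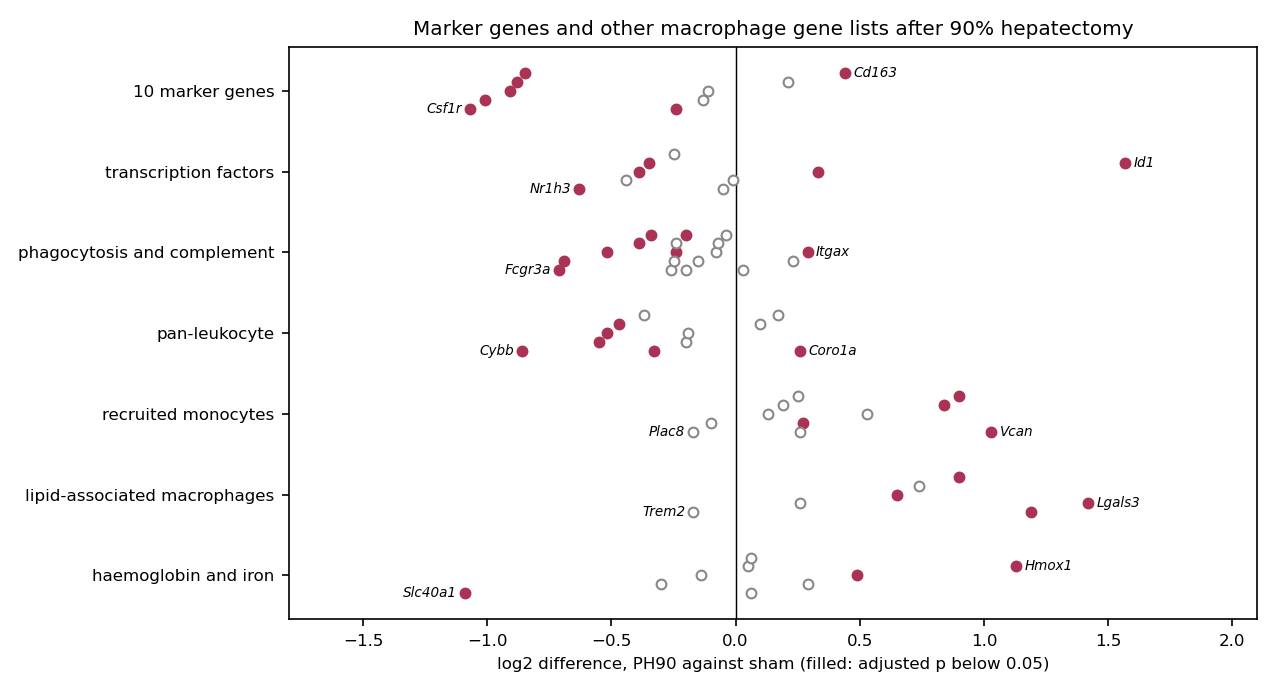
Log2 difference between PH90 and sham livers (x axis) for each measured gene of the marker set and of 6 other lists (rows), filled where limma's adjusted p was below 0.05, with the lowest and highest gene of each row named. The marker genes, phagocytosis genes and leukocyte genes lie mostly to the left, and the monocyte and lipid-associated macrophage genes mostly to the right.

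Cd163 was read beside 9 genes of haemoglobin and iron handling, of which 2 rose and 1 fell in PH90 against sham, a share near the 34.6% of all genes called (median 0.06). Hmox1, the heme oxygenase that breaks down heme, rose by 1.13 (2.19-fold, SE 0.23, adjusted p = 0.00017) and Ftl1, a ferritin chain, by 0.49. Slc40a1, the iron exporter ferroportin of Kupffer cells, ran from -1.0 to -0.19 in PH90 livers, against 0.06 to 0.70 in sham livers, and fell by 1.09 (SE 0.16, adjusted p = 3.2e-06). It also fell in PH70 (-0.98, adjusted p = 8.5e-05, and -1.13 without rats 95 and 139) and PH30 (-0.55, adjusted p = 0.045, and -0.60 without them). Hp, haptoglobin, rose in PH30 without those rats (0.15, adjusted p = 0.027). Red cell genes, 6 measured, had 1 lower and 0 higher in PH90.

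Cytokines and chemokines that macrophages release, 18 measured, had 5 higher and 5 lower in PH90 than in sham, and 8 that did not pass (median 0.05). Il1rn, the antagonist of the interleukin-1 receptor, was 2.44-fold higher (1.29, adjusted p = 1e-04) and Ccl2, which draws monocytes, 2.33-fold higher (1.22, adjusted p = 3.7e-05). Il1a, an interleukin-1 itself, was 2.21-fold lower, with values of -1.45 to -0.76 in PH90 livers against -0.23 to 0.35 in sham livers (-1.14, SE 0.11, adjusted p = 2.6e-09). Ccl24 was 1.47-fold lower. In PH70 Ccl2, Tgfb1 and Osm rose and Ccl24 fell, and in PH30 Tgfb1 rose, with Cxcl1 added without rats 95 and 139.

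Genes that mark other cell types were counted in the same way, beside the same 14.7% of all genes lower and 19.9% higher. In PH90 against sham 4 of 10 neutrophil genes rose (S100a8 by 0.56, S100a9 by 0.50), 5 of 11 T and NK cell genes fell (Prf1 by 0.70), 3 of 6 dendritic cell genes fell, 5 of 10 stellate cell genes fell and 2 rose, 2 of 7 endothelial genes fell (Oit3 by 1.64, Clec4g by 1.45), and 5 of 10 hepatocyte genes fell and 2 rose. Of the remaining lists, 1 of 5 B cell genes fell, 2 of 7 bile duct genes rose and 1 fell, 4 of 9 acute phase genes rose and 1 fell, and 1 of 10 cell division genes rose. When rats 95 and 139 were left out, 7 cell division, 5 neutrophil and 5 acute phase genes were called higher in PH90, and 6 stellate cell genes lower. The PH90 differences from sham were unchanged, and the other counts of this paragraph were as given. In PH30 against sham the endothelial gene Cdh5 then rose (0.42, adjusted p = 0.016). The share of all genes called without those rats is not given beside these counts. The mean of the neutrophil list ran from -0.02 to 0.29 in PH90 livers and from -0.10 to 0.04 in sham livers and that of the T and NK list from -0.16 to -0.08 in PH90 and 0.01 to 0.13 in sham livers. The part of these cells in the marker gene results was not tested.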

How the data were processed

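RNA of 30 rat livers was hybridised to Affymetrix Rat Gene 2.0 ST arrays. The authors deposited 1 table of log2 values for 29489 probe sets, made with RMA in Affymetrix Expression Console per the submitters' processing notes, with versions not given in the sources used here. The values run from -6.04 to 5.44, and every probe set has a median of 0 within 5e-07 over the arrays, a centring that neither table nor notes state. The log2 scale is taken from RMA. Column medians lie between -0.009 and 0.022.

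Probe sets with 1 gene symbol (18511) were averaged to 18166 genes. Probe sets with several symbols (575) or none (10403) were left out. Limma 3.58.1 (R 4.3.3) tested all genes on all 30 arrays with 1 mean per group, two-sided, Benjamini-Hochberg adjusted over all genes in each of 10 comparisons and an F test over 5 groups (25 residual and 3.71 prior degrees of freedom). SE is the moderated standard error, and intervals are 95% and unadjusted. The fit was tested on simulated data. The members and the 19 other gene lists (of 202 genes, 179 measured) were chosen with earlier results of these data known. Genes named are the members, up to 4 called genes per list and comparison (otherwise 2), and the 3 genes with the highest r to each member. The other list genes named were chosen after their values were seen. Alternatives were a fit of the compared groups alone, array weights, leaving out rats, centring arrays again, and the most variable probe set. No scan or batch label is given, and the number of arrays limits the precision. The list counts and correlations without rats 95 and 139 were added after seeing the data. Motifs were searched on both strands.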

Additional observations from a re-analysis of the deposited data

Results flagged for a closer look

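Each marker gene was examined for a lone high or low rat in each group of 6, which makes 50 sets, and chance alone flags about 1 in 20. In 4 of them the lowest rat stood apart by more than 0.625 of the group's range. Clec4f was -0.82 in PH30 rat 95, where the next lowest rat had -0.01, and -1.35 in PH90 rat 43, where the next lowest had -0.77. PH70 rat 37 was the lowest for Marco, at 0.55 with the next at 0.76, and for Cd163, at -0.46 with the next at -0.12.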

How the results depend on the processing

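Of the 38 marker gene calls over the 10 comparisons, 28 held under all alternatives run, 29 held whichever single rat was left out, and 0 changed sign. Centring arrays again lost 0 calls. Each marker has 1 probe set, so taking the most variable probe set changed only the values of other genes. A filter on low values, other background corrections and a slide block were not run, because the table holds centred values and no scan labels. In a fit of the compared groups alone, sham against unoperated had 2 markers called in place of 0 and PH90 against PH30 had 5 in place of 9. With array weights the counts were 2 in sham against unoperated, 5 in place of 2 in PH30 against unoperated, 5 in place of 3 in PH70 against unoperated, and 3 in place of 0 in PH70 against PH30. Without rats 95 and 139 they were 2 in place of 1 in PH30 against sham, 5 in PH30 against unoperated, 5 in PH70 against unoperated and 4 in PH70 against PH30. Leaving out each rat in turn gave 1 to 5 in PH30 against unoperated (5 without PH30 rat 95, and 1 without PH30 rat 65, 98 or 130 or unoperated rat 145 or 151), 2 to 5 in PH70 against unoperated (5 without PH70 rat 139) and 0 to 3 in PH70 against PH30 (3 without PH30 rat 95 or PH70 rat 139). The share of all genes called in these alternative fits is not given, so these gains and losses cannot be read as particular to the markers. The cause was not tested.

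The values that changed sign were 11 small, uncalled ones. Vsig4 in PH30 against sham was 0.01 with array weights and 0.02 without rats 95 and 139 in place of -0.05, Cd163 in PH70 against sham 0.01 with array weights in place of 0.00, Marco in PH70 against PH30 -0.02 with array weights and -0.13 without rats 95 and 139 in place of 0.09, and Clec4f in PH30 against unoperated 0.02 without those rats in place of -0.13. Leaving out single rats gave -0.12 to 0.02 (Vsig4) and -0.06 to 0.15 (Adgre1) in PH30 against sham, -0.17 to 0.02 (Clec4f) and -0.05 to 0.15 (Adgre1) in PH30 against unoperated, -0.13 to 0.17 (Marco) in PH70 against PH30, -0.05 to 0.04 (Timd4), -0.05 to 0.07 (Cd163) and -0.07 to 0.07 (Cd68) in PH70 against sham, -0.11 to 0.03 (Mrc1) in PH90 against unoperated, and 0.00 to 0.11 (Mrc1) and -0.05 to 0.08 (Adgre1) in sham against unoperated.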
